A study of Mus musculus with 4 samples.

Results

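The genes described here are 10 liver genes that respond to growth hormone or carry its signal: Ghr, Stat5b, Socs2, Cish, Igf1, Igfals, Hsd3b5, Elovl3, Slco1a1 and Selenbp2. They were chosen by name, from earlier results of the same arrays, so their values on these arrays are a description with no test. They are 10 of the 23458 genes to which probes of the arrays could be matched, and 14 probes measure them. Each of these probes was well above background on all 4 arrays.

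Liver RNA came from male mice of C57BL/6 background aged 24 weeks. F/F mice carried floxed Lpiat1 (Mboat7) alleles and no Cre. LKO mice (Alb-Cre; Lpiat1F/F) carried the same floxed alleles and a Cre transgene that the albumin promoter drives in hepatocytes, so other liver cells keep the gene. Both genotypes received either chow (CE2) or a high-fat diet (HFD) for 18 weeks from 6 weeks of age, and all mice, controls included, carried the floxed alleles. Genotype and diet give 4 groups with 1 array each, and the labels leave unsaid if mice were pooled for an array. Values for the 4 arrays are given in the order F/F then LKO on chow, followed by F/F then LKO on HFD. All differences therefore lack a replicate check, and no p-value is given.

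Growth hormone binds its receptor on hepatocytes and activates the kinase JAK2, which phosphorylates the transcription factor STAT5. STAT5 dimers enter the nucleus and bind DNA at sites of the form TTCNNNGAA. They raise Igf1 and its partner Igfals, and they raise Socs2 and Cish, whose products switch the receptor signal off. In male rodents the pituitary releases growth hormone in pulses, and the liver then expresses a male set of genes, among them Hsd3b5, Elovl3, Slco1a1 and Selenbp2, that is low under the near-continuous hormone of females.

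A level is the log2 processed intensity of a gene's brightest probe minus the log2 of the 75th percentile of its array, and a difference is the difference of 2 such levels. The SD of the difference between 2 replicate spots of 1 probe was 0.089 (log2), and it covers the array only, not the spread between mice. Different probes of 1 gene spread more, with SDs of 0.28, 0.32, 0.37 and 0.41 (log2) for the genotype difference on chow, the genotype difference on HFD, the diet difference in F/F and the diet difference in LKO. The brightness of a probe depends on its sequence, so levels were compared between arrays and never between genes. In whole liver, fewer cells of a type and less RNA per cell cannot be told apart.

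The arrays had 53.0% to 57.0% of their spots well above background and no saturated spot. Mboat7, the targeted gene, has 1 probe, with signals of 1102 in F/F chow, 861 in LKO chow, 1181 in F/F HFD and 1100 in LKO HFD. It was lower in LKO by 0.30 on chow and by 0.27 on HFD (log2), and whether the probe lies in the deleted exons was not determined. The 7 measured hepatocyte markers were well above background on all 4 arrays, with a summed level of 2729 to 3977 times the 75th percentile. Their median difference between diets was -0.31 in F/F and -0.55 in LKO (log2), whereas the median over all genes lay between -0.07 and 0.00 in the 4 comparisons. The signal of Alb was nearly flat before scaling (231569, 228565, 221091 and 222615), and a gene with such a flat signal stands lower on the HFD arrays after scaling. Cps1, another of the 7 markers, did move in signal (7877, 7326, 4325 and 4986). Its diet difference was -1.11 in F/F and -1.03 in LKO. What part the scaling had in the marker medians was not tested.

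Promoter windows from RefSeq (assembly GRCm38.p6, 250 bases before and 50 bases from the annotated start of a transcript) were at hand for 8 of the 10 genes, in 12 windows. The motif TTCNNNGAA, which is its own reverse complement, was found in 3 of the 12, and in 2726 of all 32851 windows of the same length (8.30%). A match is a run of letters, not a measured binding site. The 3 windows are shown because they belong to Cish, a feedback inhibitor whose level differed widely between the arrays, and to Igfals, which differed less, and the capitals mark the motif.
Cish, chr9:107296409-107296708, plus strand: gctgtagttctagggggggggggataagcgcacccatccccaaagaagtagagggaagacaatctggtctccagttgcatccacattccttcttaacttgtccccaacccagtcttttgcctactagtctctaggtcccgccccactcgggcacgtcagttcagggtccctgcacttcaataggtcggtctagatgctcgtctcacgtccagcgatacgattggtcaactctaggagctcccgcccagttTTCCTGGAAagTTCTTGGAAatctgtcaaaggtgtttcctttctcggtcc
Igfals, chr17:24877594-24877893, plus strand: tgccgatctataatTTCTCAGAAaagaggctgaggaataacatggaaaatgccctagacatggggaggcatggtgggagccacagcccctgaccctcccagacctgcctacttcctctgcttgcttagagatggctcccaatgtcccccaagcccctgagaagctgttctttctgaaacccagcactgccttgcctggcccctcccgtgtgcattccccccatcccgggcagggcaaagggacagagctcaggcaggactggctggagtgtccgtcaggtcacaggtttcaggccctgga
Igfals, chr17:24877981-24878280, plus strand: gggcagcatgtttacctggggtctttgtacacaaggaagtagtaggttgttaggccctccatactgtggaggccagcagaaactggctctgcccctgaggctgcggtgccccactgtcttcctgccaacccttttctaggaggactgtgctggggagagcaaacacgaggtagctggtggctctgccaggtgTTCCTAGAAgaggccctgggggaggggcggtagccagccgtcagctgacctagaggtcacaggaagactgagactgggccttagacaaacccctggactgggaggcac
Cish holds the motif 2 times, beginning at the start position itself (offset 0) and 11 bases after it. Only 150 of all windows (0.457%) hold it at least 2 times. The Igfals windows belong to different starts of the gene and hold it 1 time each, at offsets of -236 and -58. No match was found in the windows of Igf1, Ghr, Stat5b, Hsd3b5, Selenbp2 and Slco1a1, nor in the third window of Igfals, which says only that these letters are not in these 300 bases.

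**Figure D1:**
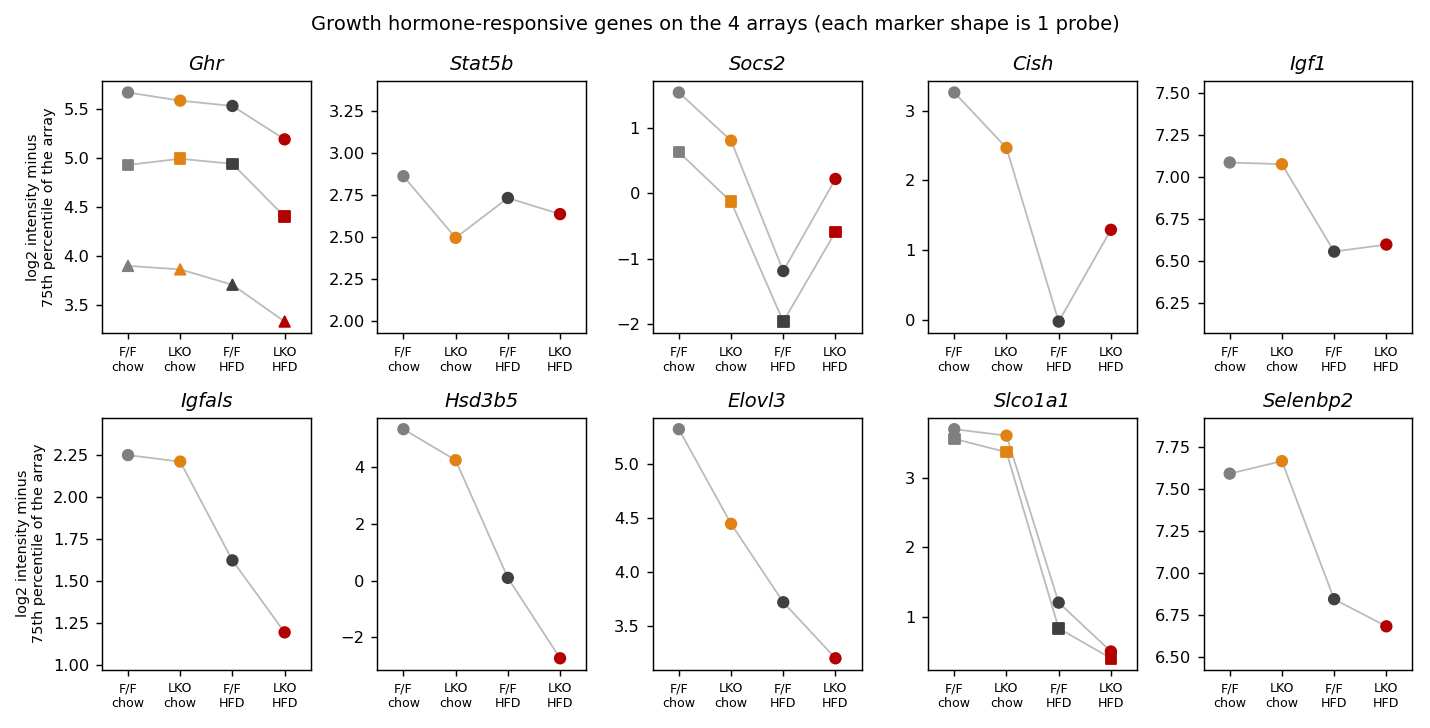
Level of each gene on the 4 arrays (vertical axis, log2 intensity minus the 75th percentile of the array, with its own range in every panel) for the 2 genotypes on chow and then on HFD (horizontal axis), where each point is 1 probe on 1 array and lines join the points of a probe. Hsd3b5 and Slco1a1 are far lower on both HFD arrays, and Socs2 and Cish are lowest on the F/F HFD array.

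Counted together, HFD values lay below chow values for all 10 genes in F/F and for 9 of 10 in LKO. The F/F count includes Ghr (-0.14) and Stat5b (-0.13), whose signals before scaling were higher on HFD. The LKO count likewise includes Ghr (-0.40), with signals of 10275 on chow and 10827 on HFD. It also includes Igf1 (-0.48), whose LKO signals of 28814 and 28667 were nearly flat. All 7 hepatocyte markers were also lower on HFD in both genotypes, and the median over all genes was -0.02 in F/F and -0.07 in LKO. In F/F, 5 of the 10 genes were at least 2-fold lower (Socs2, Cish, Hsd3b5, Elovl3 and Slco1a1) and 0 higher, with a median of -1.17. Over all genes with a value in that comparison, 2.94% were at least 2-fold lower and 5.21% at least 2-fold higher. In LKO, 5 were at least 2-fold lower (Igfals, Cish, Hsd3b5, Elovl3 and Slco1a1) and 0 higher, with a median of -0.9998, against 4.08% lower and 8.12% higher over all genes. The genes were chosen from results of these comparisons, so nothing is read from these counts and shares.

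**Figure D2:**
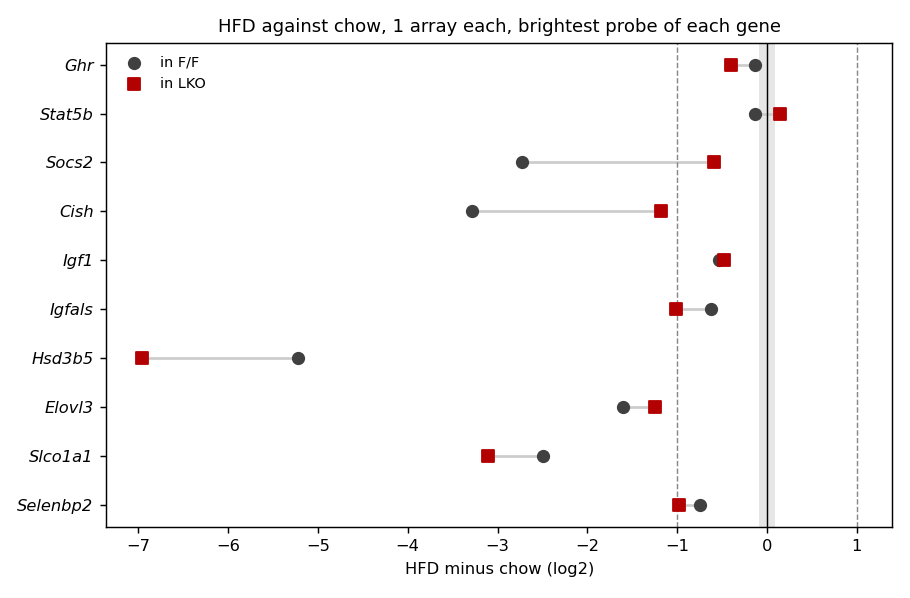
HFD minus chow (horizontal axis, log2) in F/F (circles) and LKO (squares) for the brightest probe of each of the 10 genes (vertical axis), with 1 array for each condition, dashed lines at 2-fold and a grey band of 1 SD of the difference between replicate spots (0.089). Values run from -6.96 for Hsd3b5 in LKO to 0.14 for Stat5b in LKO, and Socs2 and Cish are lower in F/F than in LKO.

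Between genotypes on chow, 1 of the 10 was at least 2-fold lower in LKO (Hsd3b5) and 0 higher, with a median of -0.23, against 1.03% lower and 1.11% higher over all genes. On HFD, 1 was at least 2-fold lower (Hsd3b5) and 2 higher (Socs2 and Cish), with a median of -0.25, against 1.91% and 2.36%. Smaller than 1 SD of the spot difference were 4 of the differences on chow (Igf1, Igfals, Ghr and Selenbp2) and 1 on HFD (Igf1).

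**Figure D3:**
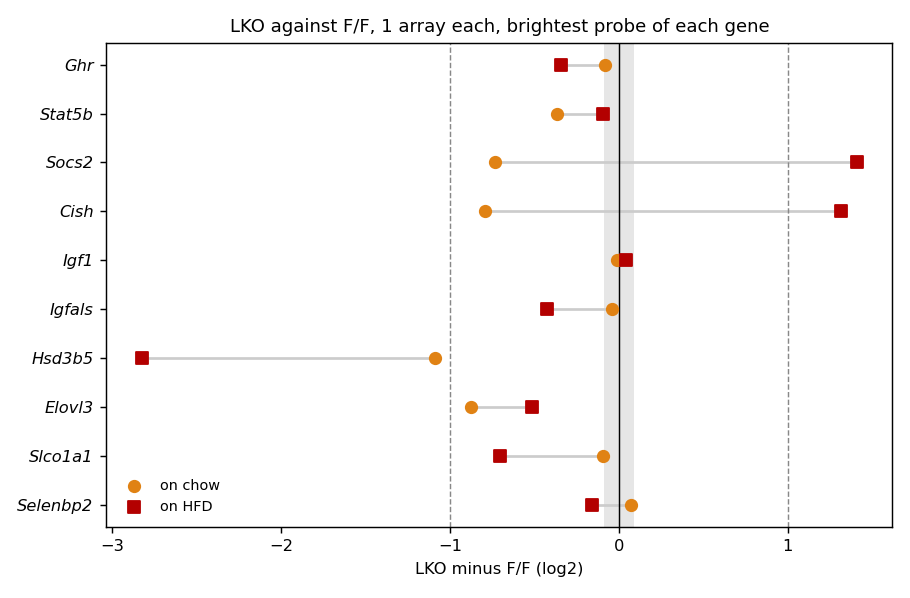
LKO minus F/F (horizontal axis, log2) on chow (circles) and HFD (squares) for the brightest probe of each of the 10 genes (vertical axis), with 1 array for each condition, dashed lines at 2-fold and a grey band of 1 SD of the difference between replicate spots (0.089). Socs2 and Cish lie on opposite sides of 0 on the 2 diets, and Hsd3b5 is lowest on both.

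Ghr, the growth hormone receptor, stayed within 1.39-fold over the 4 arrays by its brightest probe. This probe had signals of 11315 in F/F chow, 10275 in LKO chow, 12206 in F/F HFD and 10827 in LKO HFD. LKO minus F/F was -0.08 on chow and -0.34 on HFD (log2). The other 2 probes gave 0.06 and -0.04 on chow and -0.54 and -0.38 on HFD, so the chow difference had no common sign. The levels of all 3 were lowest on the LKO HFD array, but before scaling the brightest probe was lowest in LKO chow. HFD minus chow was -0.14 in F/F and -0.40 in LKO by the brightest probe, and quantile normalization gave -0.05 and -0.19. The other 2 probes gave 0.01 and -0.19 in F/F and -0.59 and -0.53 in LKO, so the F/F diet difference had no common sign either.

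Stat5b, the STAT5 form that carries most of the male growth hormone response in liver, had signals of 1612, 1203, 1749 and 1838. It was lower in LKO by 0.37 on chow and by 0.10 on HFD (log2), and the levels of the 3 other arrays lay within 0.23 of each other. It was the only 1 of the 10 genes with a higher level on HFD than on chow in LKO, by 0.14. Stat5a, its close relative, differed by -0.13 and -0.22 between genotypes on chow and HFD, and by -0.42 and -0.52 between diets in F/F and LKO. Its dimmer probe had the opposite sign in all 4 (0.09, 0.10, 0.28 and 0.29), so Stat5a has no settled direction. Jak2, the receptor's kinase, had signals of 154, 106, 159 and 203, with a genotype difference of -0.47 on chow and 0.19 on HFD, and its dimmer probe gave -0.85 and -0.11. None of these 4 genes reached a 2-fold difference in any comparison.

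Socs2, an inhibitor of growth hormone signalling whose loss gives oversized mice, had signals of 645 in F/F chow, 373 in LKO chow, 115 in F/F HFD and 344 in LKO HFD. The F/F HFD array was the lowest and the F/F chow array the highest, while both LKO arrays lay between them. LKO was 1.67-fold lower than F/F on chow (log2 -0.74) and 2.65-fold higher on HFD (log2 1.41). HFD against chow was 6.64-fold lower in F/F (log2 -2.73) and 1.5-fold lower in LKO (log2 -0.59). A second probe, with signals of 343, 195, 67.5 and 196, gave -0.76, 1.37, -2.59 and -0.46 for the same 4 comparisons.

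Cish, which binds the activated receptor and blocks STAT5, showed the same order of arrays. Its signals were 2122 in F/F chow, 1177 in LKO chow, 258 in F/F HFD and 722 in LKO HFD. LKO was 1.73-fold lower on chow (log2 -0.79) and 2.49-fold higher on HFD (log2 1.32). HFD against chow was 9.75-fold lower in F/F (log2 -3.29) and 2.26-fold lower in LKO (log2 -1.17). Among the 14279 genes measured on both F/F arrays, Cish ranked 4th from the lowest diet difference and Socs2 11th. The comparisons share arrays: a low F/F HFD value lowers the diet difference in F/F and raises the genotype difference on HFD at once.

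Other members of the SOCS family were described on the same 4 arrays. Socs3, an inhibitor that is also induced by cytokines such as interleukin 6, had signals of 7072, 2097, 515 and 1398. It was lower in LKO by 1.70 on chow and higher by 1.27 on HFD (log2), and HFD against chow was -4.03 in F/F and -1.06 in LKO. Socs1, dimmer at 57.95, 27.97, 28.9 and 48.0, was likewise lower in LKO on chow (log2 -0.995) and higher on HFD (0.56). Its diet difference was -1.25 in F/F but 0.31 in LKO, where Socs2, Cish and Socs3 were lower on HFD. Socs4, Socs5, Socs6 and Socs7 stayed within 2-fold in all 4 comparisons.

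**Figure D4:**
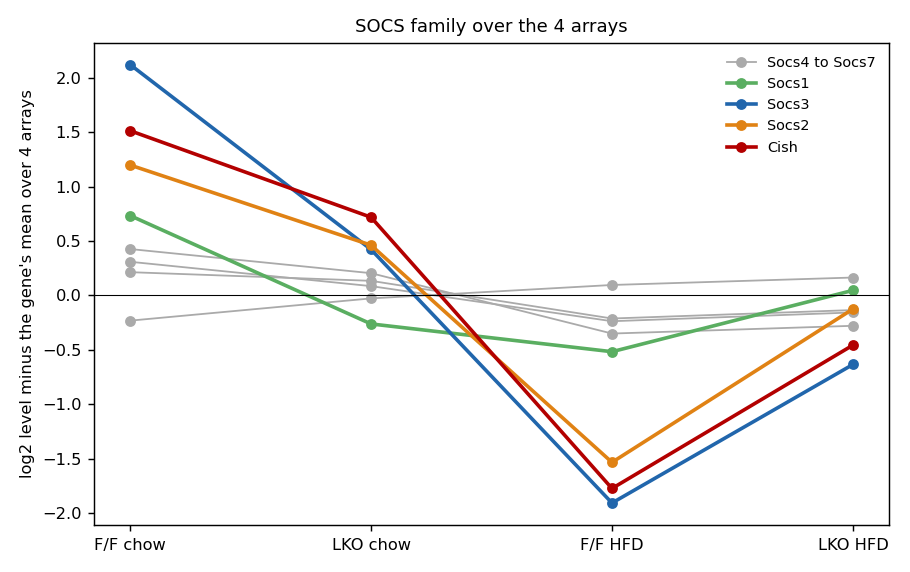
Level of the 8 SOCS family genes on the 4 arrays (horizontal axis), each minus the gene's own mean over the arrays (vertical axis, log2), with 1 point for the brightest probe of a gene on an array. Cish, Socs2 and Socs3 are highest in F/F chow and lowest in F/F HFD, with both LKO arrays between, and Socs4 to Socs7 stay close to their means.

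The growth hormone signalling list held 27 genes (receptors, JAK and STAT proteins, SOCS proteins, phosphatases and adaptors), all measured. On chow, 6 were higher and 21 lower in LKO (median -0.13), and Socs3 alone was at least 2-fold lower. On HFD, 17 were higher and 10 lower (median 0.07). At least 2-fold higher were Socs2, Socs3 and Cish, and at least 2-fold lower was Prlr, the prolactin receptor (log2 -1.04). From chow to HFD, 22 of the 27 were lower in F/F (median -0.37) and 18 in LKO (median -0.27). In F/F, 5 were at least 2-fold lower, namely Cish, Socs1, Socs2, Socs3 and Irs2 (log2 -1.58), an adaptor of the insulin receptor. In LKO they were Cish, Socs3 and Prlr (-1.07). The 2 dimmer probes of Prlr gave -0.53 and -0.23 between genotypes on HFD, and -0.43 and 0.09 between diets in LKO.

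Igf1, the growth factor that the liver releases into blood under growth hormone, had signals of 30166 in F/F chow, 28814 in LKO chow, 24790 in F/F HFD and 28667 in LKO HFD. The genotypes differed by -0.01 on chow and 0.04 on HFD (log2), both within the spread of replicate spots. HFD minus chow was -0.53 in F/F and -0.48 in LKO, and quantile normalization gave -0.36 and -0.17.

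Igfals, the acid-labile subunit that keeps IGF1 in a ternary complex in blood, had signals of 1052, 985, 809 and 675 in the same order of arrays. Its genotype difference was -0.04 on chow and -0.43 on HFD (log2), and its diet difference was -0.63 in F/F and -1.02 in LKO. Only the last reached 2-fold, and it came to -0.87 with normexp background correction and to -0.95 with quantile normalization and with the 75th percentile of probes above background on all 4 arrays.

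Of 16 genes of the IGF axis, 13 had a value in F/F between diets, and 5 were higher on HFD and 8 lower (median -0.28). In LKO 5 were higher and 7 lower (median -0.45). Igfbp2, an IGF binding protein, was the only other gene past 2-fold. Its signals were 9657, 8874, 3364 and 3951, with diet differences of -1.77 (F/F) and -1.64 (LKO) and genotype differences of -0.07 and 0.06 (log2). Igfbp3, the main carrier of IGF1 in blood, was 0.29 and 0.38 higher on HFD. Igfbp1, which is high in fasting, was 0.43 and 0.48 lower, and Igf1r, the IGF1 receptor, was 0.11 and 0.42 higher, in F/F and LKO. Between genotypes the list's median was -0.03 on chow and 0.03 on HFD, with no gene past 2-fold.

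Hsd3b5, a male-specific liver enzyme of the 3-beta-hydroxysteroid dehydrogenase family, differed most among the 10 genes. Its signals were 8835 in F/F chow, 3997 in LKO chow, 281 in F/F HFD and 44.5 in LKO HFD, and every step between these arrays was larger than 2-fold. LKO was 2.13-fold lower on chow (log2 -1.09) and 7.09-fold lower on HFD (log2 -2.83). HFD against chow was 37.3-fold lower in F/F (log2 -5.22) and 124-fold lower in LKO (log2 -6.96). Of all genes measured on both arrays, it had the lowest diet difference in F/F (of 14279) and in LKO (of 14258). Its genotype difference on HFD was the 9th lowest of 14674. The signal of LKO HFD is low, and normexp correction gave -1.74 for the genotype difference on HFD and -5.55 for the diet difference in LKO. This setting adds an offset of 50 to every spot, which by construction shrinks the differences of dim spots. How much the background correction itself changed was not tested.

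Of the 7 genes of the family, 6 were above background, and from chow to HFD the other 5 had a median of 0.17 for F/F and -0.47 for LKO (log2), with none past 2-fold. All 5 were lower in LKO on both diets (median -0.15 on chow and -0.56 on HFD), and all 5 were lower on HFD in LKO. Hsd3b2 was the only 1 of them past 2-fold between genotypes, lower in LKO on HFD by 1.08, and its dimmer probe gave -0.62. Hsd3b4 was not well above background on any array. Whether probes of this family cross-hybridise was not tested.

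Elovl3, an elongase of very long-chain fatty acids that follows both sex and the day in liver, had signals of 8852 in F/F chow, 4643 in LKO chow, 3466 in F/F HFD and 2720 in LKO HFD. LKO was lower on both diets, 1.83-fold on chow (log2 -0.87) and 1.43-fold on HFD (log2 -0.52). The HFD level was 3.03-fold lower in F/F (log2 -1.60) and 2.37-fold lower in LKO (log2 -1.24). Of the 5 other elongases above background, all were higher on HFD in F/F (median 0.52) and 3 in LKO. For Elovl6 the F/F difference was only 0.005, within the spread of replicate spots. Elovl7 was at least 2-fold higher on HFD in both genotypes (1.47 in F/F, 3.48 in LKO), with signals of 15.0, 14.7, 49.4 and 229. Elovl7 was also 2.04 higher in LKO on HFD, whereas its genotype difference on chow was 0.03.

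Slco1a1, an uptake transporter for bile acids and steroid conjugates in the sinusoidal membrane, had signals of 2886 in F/F chow, 2603 in LKO chow, 607 in F/F HFD and 419 in LKO HFD. Both chow arrays lay above both HFD arrays. The HFD level was 5.64-fold lower in F/F (log2 -2.50) and 8.61-fold lower in LKO (log2 -3.11), the 23rd and 15th lowest of all genes measured. LKO minus F/F was -0.09 on chow and -0.70 on HFD. Its second probe (2620, 2208, 470 and 392) gave -2.73 and -2.97 between diets and -0.19 and -0.43 between genotypes. Slco1a4, the other transporter of this family above background, stayed within 0.17 (log2) in all 4 comparisons, and Slco1a5 and Slco1a6 were not well above background on any array.

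Selenbp2, a selenium-binding protein of male liver, had signals of 42839 in F/F chow, 43389 in LKO chow, 30288 in F/F HFD and 30419 in LKO HFD. Genotypes differed by 0.07 on chow and -0.16 on HFD (log2). Diets differed by -0.75 in F/F and -0.98 in LKO, and by -0.54 and -0.62 with quantile normalization. Selenbp1, which is nearly identical in sequence, gave -0.52 and -0.72 between diets, and whether the probes of the pair cross-hybridise was not tested.

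The male-biased list held 22 measured genes, among them Hsd3b5, Elovl3, Slco1a1 and Selenbp2. Without these 4, HFD values lay below chow values for 17 of the other 18 in F/F (median -0.75, 8 of them by 2-fold or more) and for 16 in LKO (median -0.86, 6 by 2-fold or more). Over all genes, 2.94% and 4.08% were lower by 2-fold or more in these comparisons. The 7 hepatocyte markers were all lower on HFD too (medians -0.31 in F/F and -0.55 in LKO), and 1 of them, Cps1, by 2-fold or more in each genotype. The male-biased list was chosen with earlier results of these data known, so nothing is read from these counts and shares. Cyp7b1, an oxysterol hydroxylase of bile acid synthesis, had signals of 12180, 10875, 4027 and 2637, with diet differences of -1.84 for F/F and -2.52 for LKO. Egfr, the receptor of epidermal growth factor, was lower on HFD by 1.31 and 1.23, and Susd4, a complement regulator, by 1.90 and 1.47. Past 2-fold in F/F but not in LKO were Gstp1 (-1.25 in F/F, -0.55 in LKO), C6 (-1.32, -0.70) and the pair Cyp4a12a and Cyp4a12b, and in LKO but not in F/F were Cyp2d9 (-0.88, -1.19) and Nudt7 (-0.15, -1.31). These differences between genotypes were not tested.

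Cyp4a12a, a male-specific hydroxylase of arachidonic acid, had signals of 5975 in F/F chow, 6837 in LKO chow, 1735 in F/F HFD and 4792 in LKO HFD. It and its close copy Cyp4a12b were lower on HFD by 2.03 and 2.08 in F/F and by 0.98 and 0.86 in LKO, and higher in LKO on HFD by 1.30 and 1.27 (log2). The F/F HFD array was thus the lowest for this pair, as it was for Socs2 and Cish, and not the LKO HFD array, as for Hsd3b5 and Slco1a1. The copies are nearly identical, and whether their probes cross-hybridise was not tested.

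Between genotypes, the 18 other male-biased genes had 10 higher and 8 lower in LKO on chow (median 0.03) and, of 17 with a value, 5 higher and 12 lower on HFD (median -0.18). On chow, Moxd1, a monooxygenase-like gene, had an F/F signal of 50.9 and an LKO signal of 523 (log2 3.42), and on both HFD arrays it was not well above background. The HFD level was at least 7.24-fold lower for F/F and at least 92.8-fold lower for LKO. Cspg5 was 1.02 lower in LKO on chow, with signals of 46.9 and 22.2, but its dimmer probe gave -0.06.

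The female-biased list held 27 genes with a probe, of which 6 were not well above background on any array, among them Cux2, a female-specific repressor, and A1bg. Of the 21 with a value, HFD values exceeded chow values for 9 in F/F and fell short for 12 (median -0.11), and for 7 and 14 in LKO (median -0.36). Cyp2b9, a cytochrome of the phenobarbital-inducible group, had signals of 1855 in F/F chow, 1184 in LKO chow, 13483 in F/F HFD and 2478 in LKO HFD. It was 2.61 higher on HFD in F/F and 0.59 higher in LKO, and lower in LKO on HFD by 2.61 (log2). Cyp2b10 was 2.52 lower in LKO on HFD and 1.42 higher on HFD in F/F, where its dimmer probe gave 0.12. Cyp2b13 (460.5 in F/F, 58.4 in LKO) was 3.15 lower in LKO on HFD. It was also 5.05 higher on HFD in F/F, from a dim signal of 11.7 on chow. In LKO, where Cyp2b13 was not well above background on chow, it was at least 5.21-fold higher on HFD. Abcd2, a peroxisomal fatty acid transporter, was higher on HFD by 2.78 in F/F and 1.32 in LKO and higher in LKO on chow by 1.26. Ntrk2 was 1.38 higher in LKO on chow and 1.33 higher on HFD in F/F, and Nipal1 1.36 higher in LKO on HFD and 1.65 higher on HFD in LKO. Cyp3a16 (-2.04 in F/F, -1.58 in LKO) and Cyp3a41a (-1.70, -1.30) were lower on HFD in both genotypes, and Cyp4a10 (-1.67) and Cyp4a14 (-1.24) reached 2-fold in F/F. So the list held genes past 2-fold in both directions, 5 and 5 in F/F and 3 and 4 in LKO. Between genotypes its median was 0.14 on chow and -0.03 on HFD. Cyp3a16 and Cyp3a41a, although of the female-biased list, had signals of 9158 and 72822 in F/F chow of these male mice. Whether their probes cross-hybridise with relatives was not tested.

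**Figure D5:**
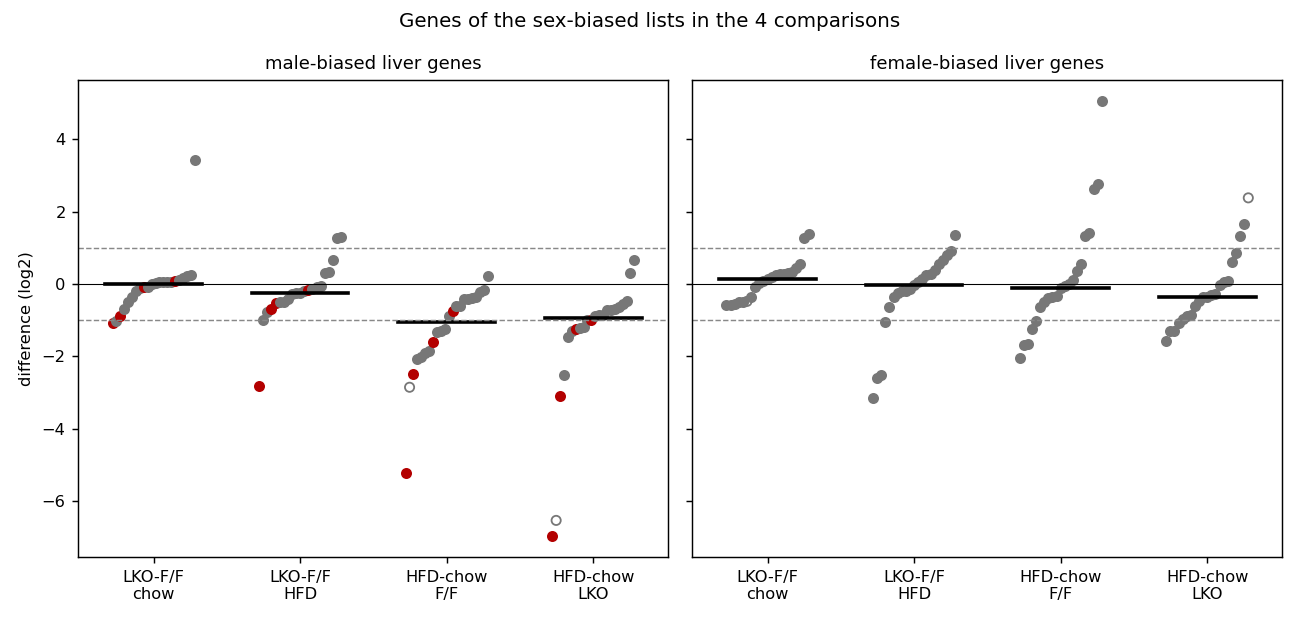
Difference (vertical axis, log2) of each gene of the male-biased list (left) and the female-biased list (right) in the 4 comparisons (horizontal axis), with 1 array for each condition, black bars for medians, open circles for bounds, red for the genes Hsd3b5, Elovl3, Slco1a1 and Selenbp2, and dashed lines at 2-fold. Male-biased medians are -1.07 and -0.94 between diets and 0.01 and -0.24 between genotypes, and female-biased values spread to both sides of 0.

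Of 16 regulators of sex-biased liver genes, 15 had a value, and Stat5b is among them. The list's median was -0.10 between genotypes on both diets, -0.26 between diets in F/F and -0.40 in LKO, with 11 and 13 of 15 lower on HFD. Onecut1 (HNF6), a hepatocyte factor, was at least 2-fold lower on HFD in both genotypes (-1.10 and -1.17), and Foxa1 in F/F (-1.24 and -0.67). Bcl6, a repressor of female-biased genes in male liver, was 0.68 lower in LKO on chow and 0.24 lower on HFD, and its diet difference was 0.23 in F/F and 0.67 in LKO.

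Genes with a like pattern were sought among 2313 genes that all 4 arrays measured above background and with a range of at least 1 (log2), by the Euclidean distance of their 4 centred levels. With only 4 points the likeness is a description. For Cish the nearest were Gm16551 (0.51), Ikzf4 (0.55) and Rgs3 (0.56), and Socs2 stood 5th at 0.58. For Socs2 they were Gm16551 (0.45), Retn (0.49) and Pdk4 (0.55), and Cish stood 4th. Elovl3 was nearest to Gm3086 (0.26), Junb (0.30) and Sohlh2 (0.33), Slco1a1 to Cadm4 (0.27), Lipn (0.40) and Cyp26a1 (0.43), and Igfals to Fam219a, Mcam and Pdp2 (each 0.03). No gene came near Hsd3b5, whose nearest was Pax2 at a distance of 2.74, and Slco1a1 stood 7th in its order at 3.68. Fam219a, Mcam and Pdp2 had bright F/F chow signals of 92907, 66842 and 109446, and Pax2 had 13895. Whether the probes of these genes cross-hybridise was not tested. Igf1, Ghr, Stat5b and Selenbp2 did not enter this search, since their range was under 1.

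Several other lists moved with the same arrays, and their part in the results was not tested. The exocrine pancreas list of 8 genes had summed levels of 23.9, 14.2, 12.5 and 46.9 (times the 75th percentile). Its 8 genes were all lower in LKO on chow (median -1.18) and all higher on HFD (median 1.92), and from chow to HFD all were lower in F/F (median -0.76), the directions of Socs2 and Cish. From chow to HFD in LKO all were higher (median 2.21), whereas Socs2 and Cish were lower. These counts use the brightest probe of each gene. The dimmer probe of Amy2a5 gave -0.10 between genotypes on HFD and -0.31 between diets in LKO, where the brightest gave 2.04 and 1.53. The circadian clock list had sums of 111, 115, 146 and 80.0. Arntl was 145, 102, 31.0 and 178 in signal, lowest on the F/F HFD array as Socs2 and Cish were, and Dbp was highest there at 14397. The time of day of sampling is not given in the sources used here.

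The 3 red cell genes summed to 107, 105, 199 and 101, but they did not share a direction between diets. In F/F, Hba-a1 and Hbb-bt were higher on HFD (log2 1.12 and 0.997), whereas Alas2 was lower (-0.42). In LKO, the diet difference was 0.16 for Hba-a1, 0.08 for Hbb-bt and -1.34 for Alas2. Macrophage markers (7 genes, all measured on each array) summed to 85.3, 88.7, 124 and 184. Stellate cell and fibroblast markers (7 genes) summed to 65.7, 69.8, 90.1 and 105. Both sums were higher on HFD, while the 10 genes were lower except Stat5b in LKO. Such sums are led by the brightest probes, here Cd5l and Dcn. The median diet difference was 0.41 in F/F and 0.99 in LKO for macrophage markers, and 0.60 and 0.85 for the stellate list. All 7 of each list were higher on HFD, save 1 macrophage marker in F/F. Endothelium summed to 39.97 to 48.0, cholangiocytes to 0.691 to 1.12 and T and B cells to 1.66 to 2.07. The 4 adipocyte markers summed to 1.71, 1.44, 1.06 and 0.974. Of these, Retn (58.5, 45.8, 12.8 and 27.2 in signal) and Adipoq (69.6, 32.2, 26.1 and 45.5) were lowest on the F/F HFD array, the level of Lep was lowest on the LKO HFD array, and Plin1 was not well above background except in F/F chow.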

How the data were processed

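Liver RNA was labelled with Cy3 and measured on 4 SurePrint G3 mouse arrays of Agilent that shared 1 slide and 1 scan. The scanner output that the authors deposited holds spot intensity values from Feature Extraction (version 12.0.3.1), background-subtracted and without scaling between arrays, and a table of intensity values that equals these times 1 factor per array (2.60, 2.63, 2.41 and 2.10). Groups were taken from the sample labels. Spots marked as outliers (76 to 132 per array) were left out and spots of a probe averaged. Levels are log2 of the intensity minus the log2 75th percentile of the array (222, 213, 263 and 296). The headers name an mm9 annotation of the array design. Accessions were matched through RefSeq (GRCm38.p6), which named 33762 of 56605 probes (59.6%) and 23458 genes, 13978 of them well above background on all 4 arrays. The brightest probe stood for a gene. A gene below background on 1 array of a pair has a bound, set by the lowest signal well above background there (7.80 to 8.35), and on both no value.

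The genes and lists were chosen with earlier results of these data known. Named are the 10 genes with every probe, Jak2, Stat5a, Igf1r, Igfbp1, Igfbp2, Igfbp3, near relatives, genes of the lists at least 2-fold different in a comparison, and for each of the 10 with a range of at least 1 (log2) the 3 genes of the most like pattern. Not every gene of the lists past 2-fold is reported here. Retn, Adipoq, Lep, Plin1, Arntl, Dbp, Bcl6, Alb, Cd5l, Dcn, Hba-a1, Hbb-bt, Alas2 and Amy2a5 were named after their values were seen. No test was made, since each condition has 1 array. The number of arrays limits the precision. Alternatives were normexp background correction (offset 50, limma 3.58.1, R 4.3.3), other scalings, filters, probes and thresholds. The steps were tested on simulated data. Python 3.11.15, numpy 2.4.6, pandas 2.3.3 and matplotlib 3.10.9 were used.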

Additional observations from a re-analysis of the deposited data

Results flagged for a closer look

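The LKO minus F/F difference of 2 of the 10 genes had opposite signs on the 2 diets. It was -0.74 on chow and 1.41 on HFD for Socs2, and -0.79 on chow and 1.32 on HFD for Cish (log2). The difference was not tested between the diets, since each value compares 1 array with 1 array, and all 4 values were larger than the SD of the difference between replicate spots.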

How the results depend on the processing

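No paired analysis was possible because each group is a single array without a replicate number. Of the 40 differences of the 10 genes, 37 kept their sign under all 9 alternatives that change values, and the others were Igf1 and Ghr between genotypes on chow and Ghr between diets in F/F. All 14 differences of at least 2-fold kept their sign and 12 stayed past 2-fold, except those of Cish (-0.95 with normexp) and Igfals (-0.87 with normexp, -0.95 with quantile normalization and with the 75th percentile of probes above background on all 4 arrays) between diets in LKO, where the last 2 settings left 4 of the 10 genes at least 2-fold lower. Depth on an array is signal over background, and the dimmest value here was Hsd3b5 on LKO HFD.

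With normexp the list medians between diets were -0.27 (signalling), -0.18 (IGF axis), -0.90 (male-biased) and -0.24 (female-biased) in F/F, and -0.16, -0.34 and -0.83 for the first 3 in LKO, where 3 of the 10 genes were at least 2-fold lower. Quantile normalization gave -0.10, -0.94 and -0.63 for male-biased genes (genotype on HFD, diet in F/F, diet in LKO) and -0.082 for the IGF axis between diets in LKO. Only genes above background on all 4 arrays gave -0.88 (male-biased) and -0.22 (female-biased) between diets in F/F. No filter gave -0.14 (genotype on HFD) and 0.00032 (diet in F/F) for female-biased genes, and moved the median of all genes to -0.12 (genotype on HFD, and diet in F/F) and -0.21 (diet in LKO). The mean of all probes gave 0.045 (female-biased, genotype on chow), -1.26 (male-biased) and -0.28 (female-biased, both diet in F/F). The second brightest probe gave -1.28 (male-biased) and -0.24 (female-biased) in F/F, and -0.13 (signalling) and -1.09 (male-biased) in LKO. At 1.5-fold, 4 of the 10 genes were lower in LKO on chow and 2 on HFD. At 4-fold, 0 were lower on chow, 0 higher on HFD, and 2 lower between diets in LKO. The cause of these changes was not tested, save that thresholds and fewer genes change counts by construction. The normexp offset of 50 likewise shrinks the differences of dim spots by construction.

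In the main setting, genotype on chow, genotype on HFD, diet in F/F and diet in LKO had values for 14978, 15525, 15355 and 15239 genes. Counts over all genes, given as higher and lower for genotype on chow, genotype on HFD, diet in F/F and diet in LKO, were 167, 154, 366, 296, 800, 452, 1238 and 621. They became 20, 19, 94, 85, 211, 147, 428 and 239 with normexp, 672, 806, 996, 889, 1366, 1351, 1913 and 1508 with no filter, 527, 519, 1253, 944, 2033, 1474, 2346 and 1789 at 1.5-fold, and 42, 33, 53, 54, 136, 94, 209 and 116 at 4-fold. Genes above background on all 4 arrays gave 76, 75, 199 and 170 between genotypes, and the mean of all probes 269 lower on chow.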
